A study of Mus musculus with 4 samples.

Results

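The genes Pax9, Alx1, Alx4, Irx1, Irx2, Irx3, Irx5, Asb4 and Pkdcc, 9 in all, which are associated with the anterior limb bud, were followed in the autopod, the limb bud's distal end from which hand and foot develop. Members were the probe sets that the platform annotation assigns to exactly 1 of these genes, which gave 14 of the 45101 probe sets on the array, for 9 of the 18194 genes that some probe set names alone. Hox13dKO embryos lacked both copies of Hoxa13 and carried the HoxDdel chromosome, from which Hoxd11, Hoxd12 and Hoxd13 are removed together, on both homologues. Wild-type embryos served as controls, and all embryos were C57BL/6 at E11.25, the embryonic day on which the first wrist and ankle condensations are visible. Each group had 2 arrays, named biological replicates in the titles, and each sample held tissue from both fore- and hindlimb buds cut to the Hoxd13 expression domain. The sources used here do not say how many embryos each sample held, so p-values measure only the spread between these samples. Removing Hoxd11 and Hoxd12 along with the HOX13 genes means that their losses cannot be told apart in these data.

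The early limb bud is divided along the thumb to little finger axis by Sonic hedgehog, secreted from posterior mesenchyme, and by the GLI3 repressor, which prevails anteriorly. Pax9, Alx4, and the early limb bud expression of Irx3 and Irx5 belong to the anterior side of this system, and loss of Alx4 in mice gives extra digits on the thumb side. HOXA13 and HOXD13 are homeodomain transcription factors of the autopod, and their joint loss in mice blocks digit formation.

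The arrays had a common trimmed mean of 500.003 signal units, set by the authors' MAS5 scaling, and log2 signals of different arrays correlated at 0.951 to 0.962 within and between groups. The ratio of 5′ to 3′ actin signal, a sign of RNA integrity, was 0.728 and 0.771 in Hox13dKO, against 0.473 and 0.764 in wild type, lowest in wild type replicate 1. As a check of the labels, Hoxd13 read 5.79 and 9.58 in Hox13dKO, against 14540.4 and 16117 in wild type, and Hoxa13 read 52.4 and 58.0 in Hox13dKO, against 842 and 1463 in wild type. Hoxd12 read 5.23 and 33.5 in Hox13dKO, against 1208 and 2171 in wild type. Hoxd11 kept signal well above the floor in Hox13dKO, at 348 and 454, against 1831 and 1745 in wild type, which was 4.50-fold lower although the gene is labelled as removed. The position of these probes within or outside the deleted DNA was not analysed here, so the Hoxd11 signal cannot be assigned to transcript or background. All 9 genes of a limb mesenchyme list (Prrx1, Prrx2, Msx1, Msx2, Twist1, Lhx2, Lhx9, Tbx5 and Tbx4) were bright enough to be tested. Of these 9, 0 passed (0.306% of all genes did) and 3 had an unadjusted p under 0.05 (7.25% of all genes did). Of those 3, 2 were higher and 1 was lower in Hox13dKO. Both Hox13dKO arrays lay above both wild-type arrays for 3 of the 9 (17.1% of all genes) and below them for 3 (20.1% of all genes). A test ran on 27022 probe sets whose geometric mean signal over the 4 arrays reached 39.6 units, with limma and an adjusted p under 0.05 as the threshold.

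Sequence upstream of the annotated start is shown for 4 of the 5 genes whose groups did not overlap by their brightest probe set, Pax9, Irx3, Asb4 and Pkdcc. Irx1 is the other one. Each is the 250 bases before a start site in RefSeq's GRCm38.p6 table, 5′ to 3′ on the gene's strand, and capitals mark CG dinucleotides, the sites of most DNA methylation. The windows are chr12:56695221-56695470 on the plus strand for Pax9, chr8:91801655-91801904 on the minus strand for Irx3, chr6:5383136-5383385 on the plus strand for Asb4 and chr17:83215033-83215282 on the plus strand for Pkdcc.
Pax9: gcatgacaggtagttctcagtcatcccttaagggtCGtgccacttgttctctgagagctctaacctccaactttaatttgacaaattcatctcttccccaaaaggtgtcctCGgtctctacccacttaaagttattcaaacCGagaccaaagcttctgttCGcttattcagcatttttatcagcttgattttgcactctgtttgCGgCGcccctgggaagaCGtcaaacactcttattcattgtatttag
Irx3: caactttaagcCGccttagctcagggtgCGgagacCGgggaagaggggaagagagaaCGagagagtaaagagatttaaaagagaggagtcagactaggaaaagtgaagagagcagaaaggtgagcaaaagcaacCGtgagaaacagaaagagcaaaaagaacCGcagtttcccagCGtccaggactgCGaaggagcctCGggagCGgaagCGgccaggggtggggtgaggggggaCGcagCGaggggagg
Asb4: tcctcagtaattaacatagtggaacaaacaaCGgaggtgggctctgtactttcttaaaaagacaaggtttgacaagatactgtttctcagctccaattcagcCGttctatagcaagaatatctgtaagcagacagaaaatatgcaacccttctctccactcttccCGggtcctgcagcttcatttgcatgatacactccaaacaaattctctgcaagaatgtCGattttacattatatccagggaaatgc
Pkdcc: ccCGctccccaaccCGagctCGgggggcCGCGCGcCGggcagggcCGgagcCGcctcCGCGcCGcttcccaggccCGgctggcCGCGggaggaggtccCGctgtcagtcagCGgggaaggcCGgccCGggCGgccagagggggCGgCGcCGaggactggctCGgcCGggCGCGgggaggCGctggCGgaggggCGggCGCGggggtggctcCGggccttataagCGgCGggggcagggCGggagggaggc

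These windows share no common base composition. They held 7 CG dinucleotides in Pax9, 13 in Irx3, 4 in Asb4 and 36 in Pkdcc, beside a median of 6 over the 32851 promoter windows of the table. Pkdcc was 83.2% G or C, with more CG dinucleotides than 97.4% of all windows, whereas Asb4 was 40.8% G or C. A pair of short motifs was searched on both strands of the full windows, which run 50 bases past the start. They were CAATAAA, the core of HOX13 binding motifs, and ACCACCC, the core of the GLI motif. Neither occurred in any of the 6 windows of the 5 genes listed (Asb4 with 2 starts, Irx2, Irx3, Pax9 and Pkdcc), while CAATAAA was in 4.6% and ACCACCC in 4.61% of all windows. These letters are thus not in these windows, which says nothing about binding elsewhere.

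The autopod lacking these Hox genes had more Pax9, Irx3, Asb4 and Pkdcc signal and less Irx1 signal on both arrays than either wild-type array, but no probe set of the 9 genes passed the threshold. Pax9 read 3.57-fold higher in Hox13dKO, Irx3 1.96-fold, Pkdcc 1.97-fold and Asb4 1.59-fold, and Irx1 read 3.92-fold lower, each by its brightest probe set. Of the 14 probe sets, 12 were bright enough to be tested, covering 8 of the 9 genes, and both Alx1 probe sets were not. By limma 0 of 12 had an adjusted p under 0.05, where 0.207% of all probe sets tested did. At an unadjusted p under 0.05 there were 8 of 12, 7 higher and 1 lower, where 3.80% of all probe sets were higher and 2.46% were lower. Both Hox13dKO arrays lay above both wild-type arrays for 7 of the 12 (16.3% of all probe sets) and below them for 1 (18.3% of all probe sets), and 4 overlapped. The filter itself used the signals: a dim Pax9 probe set reached it only through its Hox13dKO arrays and Alx4 only through its wild-type arrays, so these counts are a description. In autopod tissue of mixed cell types, more or fewer cells of a type and more or less RNA per cell cannot be told apart.

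**Figure D1:**
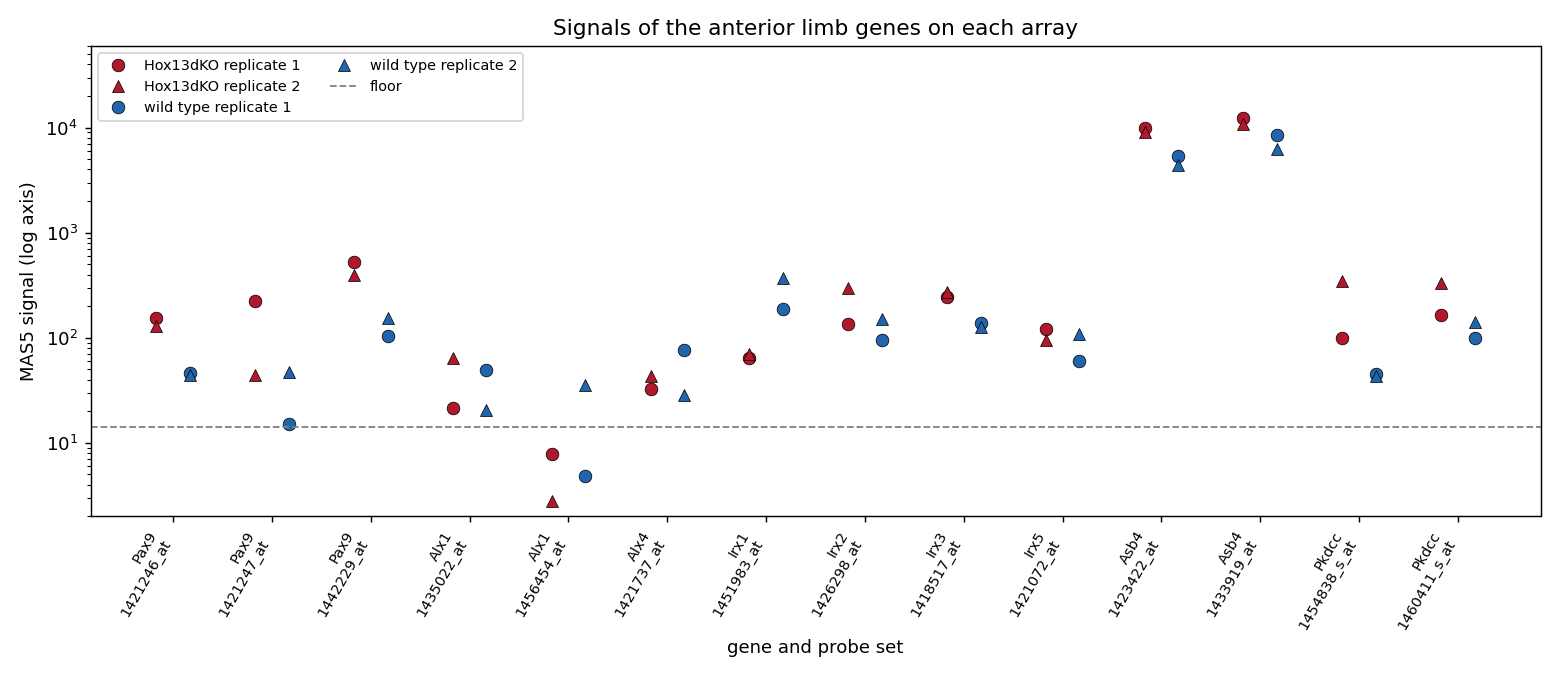
Signal of each of the 14 probe sets of the 9 genes on each of the 4 arrays, on a log axis, with Hox13dKO in red and wild type in blue; circles are replicate 1, triangles are replicate 2, and the dashed line is the floor of 14.1 signal units. Red points sit above blue for Asb4, Irx3, Pkdcc and 2 of the 3 Pax9 probe sets, red points sit below blue for Irx1, and the other probe sets overlap.

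Pax9 encodes a paired-box transcription factor expressed at the anterior margin of the limb bud, and its loss in mice gives an extra digit on the thumb side. Its brightest probe set read 525 and 392 in Hox13dKO, against 105 and 154 in wild type. The groups did not overlap, averaging 459 ± 94.5 in Hox13dKO against 129.5 ± 34.7 in wild type (n = 2 each, ± SD). The log2 difference was 1.83 ± 0.31 (SE), 3.57-fold, with a limma adjusted p of 0.0950, just outside the threshold. Among 13072 genes tested by their brightest probe set, Pax9 had the 49th highest difference, with 0.367% of genes above it.

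The next brightest Pax9 probe set read 154 and 129.9 in Hox13dKO, against 46.3 and 44.0 in wild type. These groups again did not overlap, with a log2 difference of 1.65 ± 0.47 (SE; limma adjusted p = 0.420). The dimmest of the 3 read 226 and 44.0 in Hox13dKO, against 15.0 and 47.2 in wild type. Here the groups overlapped and Hox13dKO replicate 1 alone stood high: the log2 difference of 1.91 ± 0.93 (limma adjusted p = 0.859) was 0.73 without that array and 3.09 without Hox13dKO replicate 2. This dimmest probe set is the one that reached the filter only through its Hox13dKO arrays, so its direction adds nothing to that of the brighter 2, at which replicates lay closer.

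The genes whose pattern over the 4 arrays was most like that of Pax9 were Ctsf, Wdfy1, Fgf4, Grin3a and Rarres1. Likeness was the root mean square distance between log2 deviations from each gene's own mean, over 4 arrays. It was 0.102 for Ctsf, which encodes a lysosomal protease, 0.110 for Wdfy1, an endosomal adaptor gene, and 0.124 for Fgf4, a growth factor gene of the apical ridge. It was 0.141 for Grin3a, a glutamate receptor subunit gene, and 0.172 for Rarres1, a gene first found by its response to a retinoid. Fgf4 read 215 and 196 in Hox13dKO, against 46.1 and 76.9 in wild type. Its probe set carries a suffix by which Affymetrix marks probes that may bind other transcripts. Grin3a reached the filter only through its Hox13dKO arrays. None of the 5 passed the threshold, with limma adjusted p from 0.0882 for Wdfy1 to 0.740 for Grin3a. Because the 5 were picked by likeness to Pax9 on these same arrays, their group differences follow from that choice and are a description.

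The aristaless-like homeobox genes Alx1 and Alx4, both needed for craniofacial mesenchyme, gave dim signals in which no difference could be resolved. Alx4 is a known repressor of anterior Sonic hedgehog expression in mouse limb buds. It read 32.2 and 43.2 in Hox13dKO, against 77.1 and 28.7 in wild type, so the 2 wild-type arrays enclosed both Hox13dKO arrays. Its log2 difference was -0.33 ± 0.76 (SE; limma adjusted p = 0.979), and it changed sign, to 0.38, without wild type replicate 1. Its geometric mean of 41.9 units put it just inside the filter at 39.6.

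Alx1 lay just outside that filter at 34.2 units by its brighter probe set. This one read 21.3 and 64.2 in Hox13dKO, against 49.2 and 20.4 in wild type. Its other probe set read 7.77 and 2.78 in Hox13dKO, against 4.80 and 35.9 in wild type, with 3 of the 4 arrays under the floor of 14.1 units. For the brighter probe set, replicates of each group differed by more than the group means did. A change in Alx1 was not detectable at these signals.

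The Iroquois genes encode homeodomain factors that lie in clusters, and here they did not share a direction. In the mouse, Irx1 and Irx2 are next to each other on chromosome 13 and Irx3 and Irx5 on chromosome 8, with 0 annotated protein-coding genes between the members of each pair. Each of the 4 was measured by 1 probe set.

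Irx3, which with Irx5 is required in mice for proximal and anterior limb skeleton, read 247 and 271 in Hox13dKO, against 138 and 125.5 in wild type. Replicates lay close together and the groups did not overlap, averaging 259 ± 16.9 in Hox13dKO against 132 ± 9.16 in wild type (n = 2 each, ± SD). The log2 difference was 0.97 ± 0.30 (SE), 1.96-fold, with a limma adjusted p of 0.530, and it stayed between 0.90 and 1.04 when any 1 array was left out. Irx5 read 120.4 and 94.7 in Hox13dKO, against 59.5 and 108.6 in wild type. These groups overlapped, and the log2 difference of 0.41 ± 0.49 (limma adjusted p = 0.961) ranged from -0.024 without wild type replicate 1 to 0.84 without wild type replicate 2.

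Irx1, whose transcripts mark developing digit rudiments and joints in the mouse, was the only member of the 9 with both Hox13dKO arrays below both wild-type arrays. It read 64.5 and 70.0 in Hox13dKO, against 188 and 368 in wild type. The Hox13dKO arrays were alike and the wild-type arrays differed by 1.96-fold, averaging 67.2 ± 3.86 in Hox13dKO against 278 ± 127 in wild type (n = 2 each, ± SD). The log2 difference was -1.97 ± 0.43 (SE), 3.92-fold lower, with a limma adjusted p of 0.210. Among 13072 genes it had the 43rd lowest difference. Without wild type replicate 1 the log2 difference was -2.46, and without wild type replicate 2 it was -1.49.

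Irx2, the neighbour of Irx1 with overlapping limb expression in mice, read 134 and 298 in Hox13dKO, against 95.1 and 150.1 in wild type. Its groups overlapped, since the lower Hox13dKO array lay below the higher wild-type array. The log2 difference was 0.74 ± 0.46 (SE; limma adjusted p = 0.900), and 0.17 without Hox13dKO replicate 2. Irx2 and Irx1 therefore differed in their log2 difference by 2.72, and Irx3 and Irx5 by 0.56. An exact two-sided permutation test over arrays gave p = 0.333 for Irx2 against Irx1 and p = 0.667 for Irx3 against Irx5 (both 0.667 after Benjamini-Hochberg adjustment over the 2 pairs, 2 arrays per group). The smallest p that 2 against 2 arrays allow is 0.333, so this test could not pass 0.05. These pairs were set after the values were seen.

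**Figure D2:**
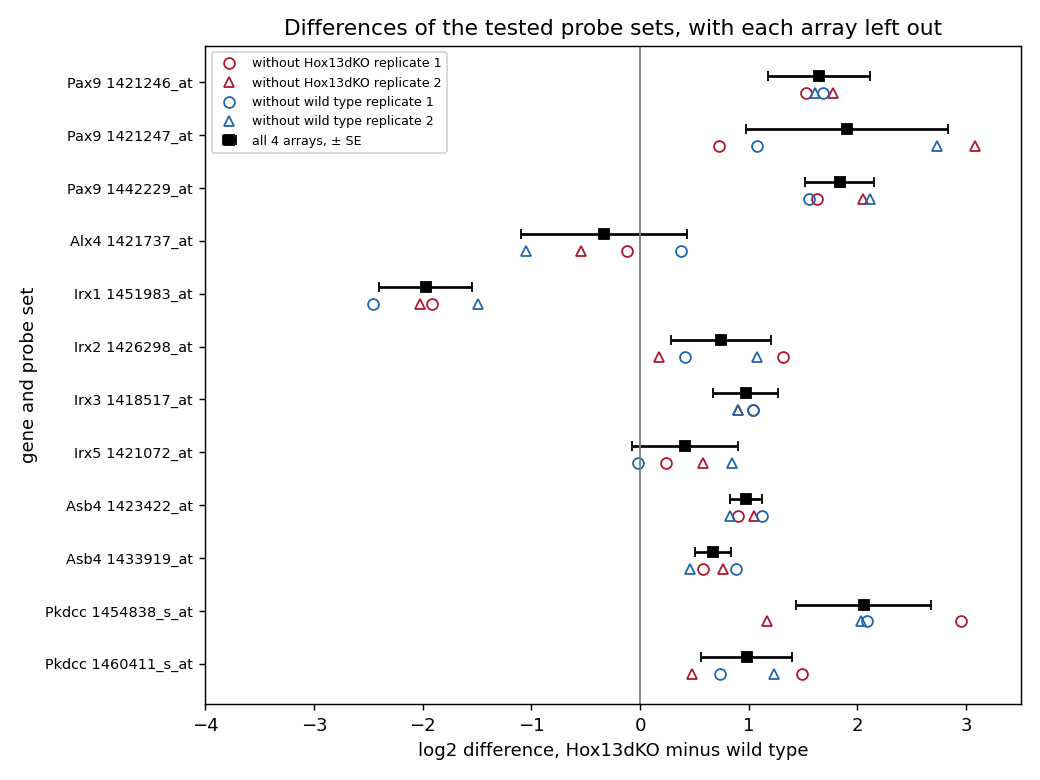
Log2 difference, Hox13dKO minus wild type, of the 12 tested probe sets; squares with bars are the value over 4 arrays ± SE, and open symbols are the values with 1 array left out. Irx1 stays negative throughout, between -2.46 and -1.49, and the brightest Pax9 probe set stays between 1.56 and 2.11, whereas Alx4 and Irx5 cross 0 without wild type replicate 1.

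Asb4 encodes an ankyrin repeat protein that recruits substrates to a cullin ubiquitin ligase. Its brighter probe set read 12381 and 10890.4 in Hox13dKO, against 8428 and 6319.8 in wild type. The groups did not overlap, and the log2 difference was 0.67 ± 0.17 (SE; limma adjusted p = 0.295), 1.59-fold. The other Asb4 probe set read 10037 and 9034 in Hox13dKO, against 5370.4 and 4377 in wild type. This 1.96-fold difference, 0.97 ± 0.15 on the log2 scale, came closest to the threshold of the 12 probe sets (limma adjusted p = 0.0636). Asb4 thus had the same direction by both of its probe sets, at bright signals where replicates were close.

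Pkdcc encodes a secreted kinase that phosphorylates extracellular proteins and is needed for long bone growth in mice. Both of its probe sets carry the suffix by which Affymetrix marks probes shared between transcripts. The brighter of them read 166 and 334 in Hox13dKO, against 100.5 and 141 in wild type. The groups did not overlap, but Hox13dKO replicate 1 lay close to wild type replicate 2. The log2 difference was 0.98 ± 0.42 (SE; limma adjusted p = 0.789), and 0.48 without Hox13dKO replicate 2.

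The dimmer Pkdcc probe set read 99.9 and 345 in Hox13dKO, against 45.5 and 43.7 in wild type. Its Hox13dKO arrays differed by 3.45-fold while the wild-type arrays were nearly equal. The log2 difference was 2.06 ± 0.62 (SE; limma adjusted p = 0.494), 1.16 without Hox13dKO replicate 2 and 2.95 without Hox13dKO replicate 1. Pkdcc and Irx2 shared this feature, with Hox13dKO replicate 2 above Hox13dKO replicate 1 by 2.01-fold for the brighter Pkdcc probe set and 2.22-fold for Irx2. Skeletal muscle markers also differed between these replicates, with summed signals of 1837 and 3789 in Hox13dKO, against 814 and 730.5 in wild type. This was not particular to muscle. From Hox13dKO replicate 1 to replicate 2, ectoderm sums went from 7600 to 9794 and endothelium sums from 2621 to 3372. The median signal of the array went from 66.1 to 81.2, while limb mesenchyme sums fell from 33281.5 to 27233. The part of any of these in the Pkdcc and Irx2 values was not tested.

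By brightest probe set, the 8 genes tested had a median log2 difference of 0.71, against -0.03 over all 13072 genes. Both Hox13dKO arrays were higher for 4 of the 8 (17.1% of all genes), lower for 1 (20.1% of all genes) and overlapping for 3. Positive differences were seen for 6, with Alx4 and Irx1 negative. No gene of the 8 passed, where 0.306% of all genes did, and 5 had an unadjusted p under 0.05 by limma, where 7.25% of all genes did. With 1 array left out, the count of calls was 3 of the 8 genes without wild type replicate 1 (Pax9, Irx1 and Asb4) and 1 without wild type replicate 2 (Pax9), and 0 without either Hox13dKO array. Over all probe sets the corresponding counts were 306, 525, 20 and 11 in the fits without wild type replicate 1, wild type replicate 2, Hox13dKO replicate 1 and Hox13dKO replicate 2, against 56 with all 4 arrays.

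**Figure D3:**
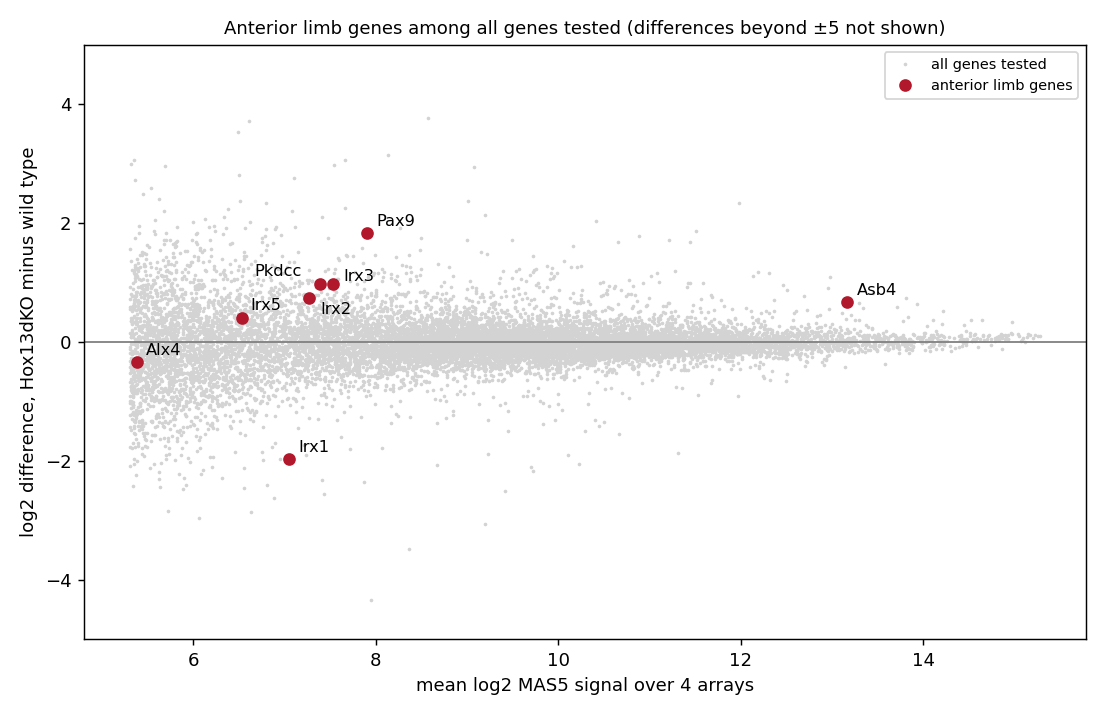
Log2 difference, Hox13dKO minus wild type, against the mean log2 signal over 4 arrays for every gene tested (grey, 13072 genes by brightest probe set) and the 8 anterior limb genes tested (red). Pax9 and Irx1 lie at the upper and lower edges of the grey cloud, Asb4 lies above 0 at a high signal where the cloud is narrow, and Alx4 lies within it at a low signal.

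Other genes of the same families and of the same axis were set beside these. Among 3 paralogues, 1 was bright enough to be tested, Irx4, a neighbour of Irx2 known for its role in heart ventricles. It read 56.9 and 98.2 in Hox13dKO, against 16.1 and 44.7 in wild type, with a log2 difference of 1.48 ± 0.77 (SE; limma adjusted p = 0.873). Pax1 and Irx6 were too dim to be tested. Irx4 reached the filter only through its Hox13dKO arrays, so its positive difference is a description.

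Of 13 regulators of the anterior-posterior axis, 12 were tested, 0 passed and 3 had positive differences, with a median log2 difference of -0.46. At an unadjusted p under 0.05 there were 7, with 2 higher (4.26% of all genes) and 5 lower (2.99% of all genes). The lowest p belonged to Bmp2, a posterior bone morphogenetic protein gene, which read 394 and 385 in Hox13dKO, against 819 and 790.8 in wild type (limma adjusted p = 0.102). Gli1, a transcriptional target of Hedgehog signalling, read 294 and 336 in Hox13dKO, against 640.3 and 540.5 in wild type (limma adjusted p = 0.272). Tbx2, a T-box gene of the limb bud margins, read 177 and 441 in Hox13dKO, against 670.2 and 692 in wild type (limma adjusted p = 0.488). In all 3, which were named for their low p, both Hox13dKO arrays lay below both wild-type arrays. That held for 8 of the 12 tested (20.1% of all genes). Both lay above for 2 (17.1% of all genes), and 2 overlapped.

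Gli3, the gene that encodes the anterior repressor, was named after its values were seen. The arrays measured its transcript, and the repressor protein was not measured. Its brightest probe set read 6444 and 4319 in Hox13dKO, against 3901 and 3491 in wild type. All 3 of its probe sets differed in the direction of Pax9, Irx3 and Asb4, by 0.52, 0.56 and 0.82 on the log2 scale, and 0 of 3 passed the threshold (limma adjusted p from 0.297 to 0.746). Gli3 was among the 3 of 12 tested axis genes with positive differences. Msx1 and Lhx9 of the same list had log2 differences of -0.35 and -0.12, and the Lhx9 groups overlapped.

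Genes of the proximal limb bud included some that passed. All 11 listed were tested and 4 were higher in Hox13dKO past the threshold, Hoxd9, Hoxa11, Tshz2 and Shox2, where 0.161% of all genes were, while 0 were lower, where 0.145% of all genes were. The median log2 difference was 0.82. Hoxd9, a Hox gene of the proximal limb segments, read 9282 and 8878 in Hox13dKO, against 2147 and 1516 in wild type (limma adjusted p = 0.00423). Shox2, which patterns the proximal limb segment, read 3835 and 4835 in Hox13dKO, against 1658 and 1038 in wild type (limma adjusted p = 0.0432). Summed over the 11 genes, signals were 36938 and 35307 in Hox13dKO, against 18112 and 15299 in wild type. These sums include Hoxd9 and Hoxa11, genes of the HoxD and HoxA clusters that were altered in Hox13dKO. Hoxa11 read 5490 and 5628 in Hox13dKO, against 1568 and 1492 in wild type. Whether the altered clusters themselves changed the signal of their remaining genes was not tested. The part of the proximal genes in the values of Irx3 and the other members was not tested.

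Markers of other cell types were given the same comparison, in which 0.306% of all genes passed. For skeletal muscle 1 of 8 passed, Actc1, an actin of embryonic muscle (880.3 and 2252 in Hox13dKO, against 116 and 92.7 in wild type). Myog and Des of this list reached the filter only through their Hox13dKO arrays, so the counts that follow are a description. Myog, counted as higher in both, read 222 and 424 in Hox13dKO, against 49.3 and 10.7 in wild type. At an unadjusted p under 0.05, 4 of the 8 muscle genes were higher (4.26% of all genes) and 0 lower (2.99% of all genes). Both Hox13dKO arrays lay above both wild-type arrays for 5 (17.1% of all genes) and below them for 1 (20.1% of all genes). Pax3, a gene of migrating muscle precursors, and Met, the receptor gene that guides their migration, had negative log2 differences of -1.16 ± 0.88 and -0.25 ± 0.26 (SE). This Pax3 probe set, with 1 array under the floor, reached the filter only through its wild-type arrays. Another tested Pax3 probe set had a log2 difference of 0.24 ± 0.79 (SE). The remaining Pax3 probe set, not tested, read 47.6 and 48.0 in Hox13dKO, against 31.0 and 26.4 in wild type.

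At an unadjusted p under 0.05, 4.26% of all genes were higher and 2.99% were lower. For ectoderm 0 of 8 passed and 1 was lower at that level. Its summed signals were 7600.1 and 9794 in Hox13dKO, against 8170 and 7411 in wild type. For endothelium 0 of 6 passed and 2 were higher at that level, with 2621 and 3372 in Hox13dKO, against 2304 and 2355 in wild type. For red cells 0 of 4 passed and 1 was higher at that level, with 91181 and 106084 in Hox13dKO, against 75167 and 97989 in wild type. For nerve and Schwann cells 0 of 3 passed and 1 was lower at that level, with 681 and 977 in Hox13dKO, against 822 and 791 in wild type. Among the sums of these 5 lists, those of muscle and endothelium did not overlap between the groups.

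A sum follows its brightest probe sets, and single markers separated in lists whose sums overlapped; a pair of them was named after the values were seen. Tubb3, a tubulin gene of neurons, read 82.2 and 136 in Hox13dKO, against 231 and 291 in wild type (limma adjusted p = 0.437). The other tested markers of its list had positive log2 differences, 0.42 for Erbb3 and 0.18 for Sox10. Erbb3 read 532 and 721 in Hox13dKO, against 494 and 436 in wild type, without overlap, and the Sox10 groups overlapped. Alas2, a haem synthesis gene of red cells, read 1621 and 917 in Hox13dKO, against 427 and 726 in wild type (limma adjusted p = 0.430). No gene lay at the floor on all 4 arrays in any of the 5 lists. Their part in the values of the 9 genes was not tested.

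**Figure D4:**
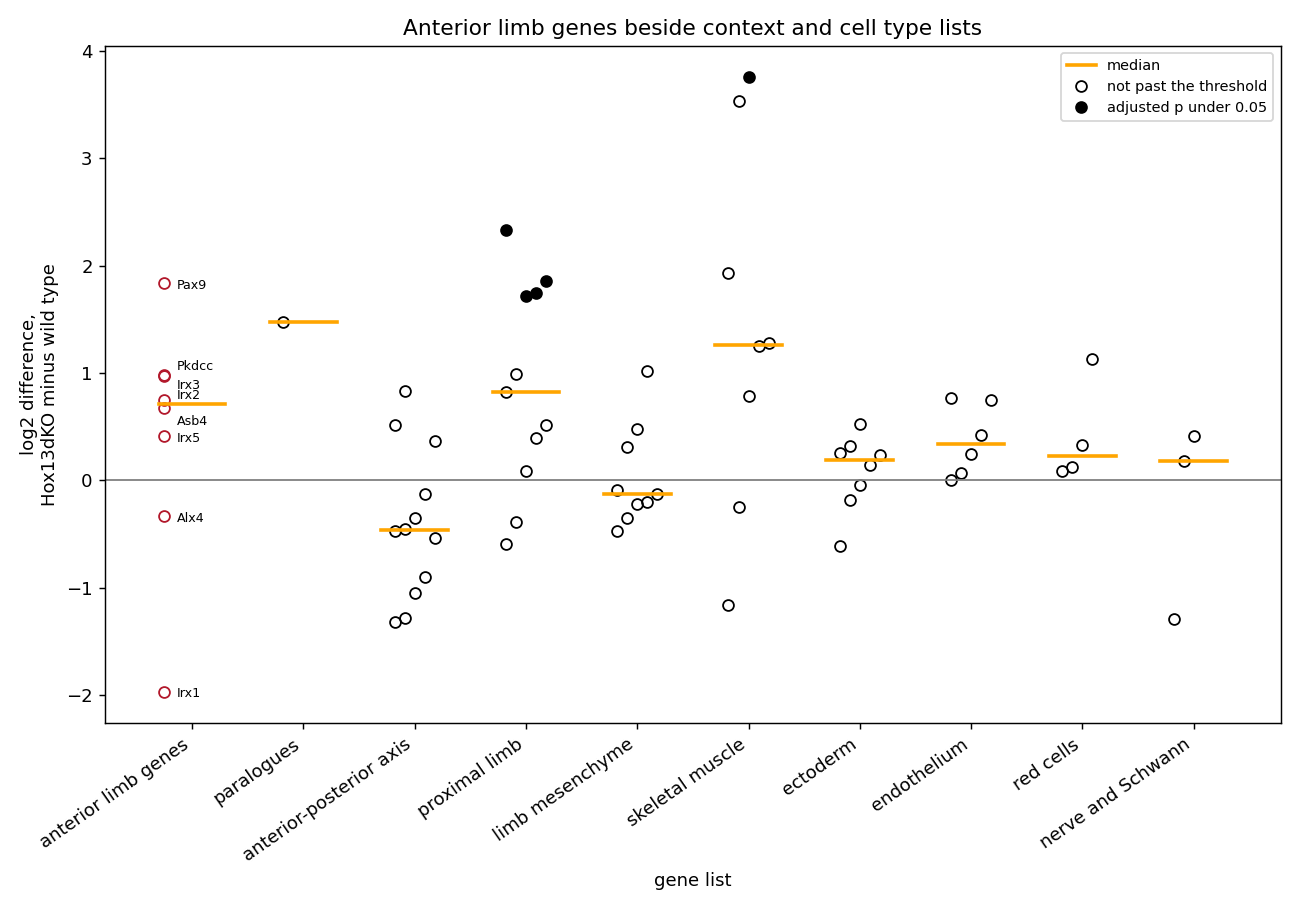
Log2 difference, Hox13dKO minus wild type, of each tested gene by its brightest probe set, in the 9 anterior limb genes (red, 8 tested) and in the context and cell type lists; orange bars are medians and filled circles have an adjusted p under 0.05. Filled circles occur in the proximal limb list (4) and the skeletal muscle list (1), and the anterior limb genes range from -1.97 for Irx1 to 1.83 for Pax9.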

How the data were processed

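Biotin-labelled cRNA from autopod RNA was hybridised to 4 arrays, 2 Hox13dKO and 2 wild type. The deposited values are an intensity per probe set on a linear scale, made by the authors with MAS5 per the submitters' processing notes, with no version stated in the sources used here. MAS5 detection calls were not used here. Of 45101 probe sets, 34958 had 1 gene symbol, 932 several and 9211 none; the 64 control probe sets were left out. Signals under the 20th percentile of all values, 14.1 units, were raised to it, log2 was taken, and probe sets with mean log2 signal at or above the 40th percentile were tested with limma 3.58.1 in R 4.3.3 (lmFit, eBayes with an intensity trend, two-sided, Benjamini-Hochberg over all tested, 2 residual and 6.05 prior degrees of freedom). A gene was represented by its brightest probe set. Array number limits the precision. The steps were tested on simulated data with 200 changed probe sets per run. At the threshold they recovered 11.1% of 2-fold and 49.1% of 4-fold changes, with 3.8 false calls per run.

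The members and lists were chosen with earlier results of these data known. Named were all probe sets of the members, targeted genes, and 5 pattern neighbours of Pax9. From the lists, members past the threshold were named, or otherwise the 3 with the lowest p. Gli3, Msx1, Lhx9, Pax3, Met, Myog, Des, Tubb3, Erbb3, Sox10 and Alas2 were added after values were seen. The choice of which called and targeted genes get values also came after values were seen. The lists are 3 paralogues (Pax1, Irx4, Irx6), 13 axis genes (Gli3, Lhx9, Osr1, Msx1, Shh, Ptch1, Gli1, Hand2, Tbx2, Tbx3, Bmp2, Grem1, Hhip), 11 proximal genes (Meis1, Meis2, Meis3, Shox2, Tbx18, Tshz2, Emx2, Hoxa11, Hoxd9, Hoxa9, Hoxd10) and markers of 6 cell types; some further list members are not reported here. Figures were drawn with matplotlib 3.10.9. Alternatives covered the floor, normalization, filter, variance model, replicate block, probe set choice, threshold and each array left out.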

Additional observations from a re-analysis of the deposited data

How the results depend on the processing

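Over the alternatives, 149 of 168 recomputed log2 differences of the 12 probe sets kept their direction and their side of the threshold, 17 gained a call and 2 changed sign; the cause of these moves was not tested. With 1 array left out, Alx4 ranged from -1.05 to 0.38 and Irx5 from -0.024 to 0.84. The number of member probe sets past the threshold, 0 of 12, was 1 after quantile normalization, 4 after median centring, 1 with 1 probe set per gene, 1 without cross-hybridising probe sets (which leaves out both Pkdcc probe sets), 2 at an adjusted p under 0.10 and 0 to 4 with 1 array left out. By brightest probe set, 0 of 8 genes became 2 after median centring, 1 with 1 probe set per gene, 1 at an adjusted p under 0.10 and 0 to 3 with 1 array left out. Over all probe sets, 56 calls became 214 after median centring, 0 without the filter (3159 at an unadjusted p under 0.05), 1 without the intensity trend, 95 with 1 probe set per gene, 111 at an adjusted p under 0.10 and 11 to 525 with 1 array left out. Calls over all probe sets were 65 after quantile normalization and 54 without cross-hybridising probe sets. The median of the tested genes stayed between 0.53 and 0.97. The limma adjusted p of the brightest Pax9 probe set ranged from 0.000306 to 0.628 over its 15 alternatives.

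The replicate numbers are shared between groups, but nothing in the labels ties same-numbered samples together; their deviations correlated at 0.198 over 27022 probe sets. With the replicate number as a block, 4 member probe sets, 3 member genes and 418 probe sets in all passed. A fit on 3 arrays takes the spread of the single remaining array from the other group. Dim signals limit what can be seen of Alx1 and Alx4.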
